A study of Mus musculus with 8 samples.

Results

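The 50 genes described here encode proteins that build ribosomes in the nucleolus, from RNA polymerase I and its factors to the assembly factors of both ribosomal subunits. They were taken by gene symbol from 53392 genes in the library files. All 50 symbols were found, each under 1 gene identifier, and their 318 transcripts were summed per gene. RNA came from the cortex of newborn mice (postnatal day 0) on the FVB/N background, from mutants carrying R342X in Phf6 (4 libraries) and from wild-type mice titled under the same line (4 libraries). The labels do not give the sex of the mice, whether mutants carried 1 or more copies of the allele, or whether each library came from its own animal, so p-values measure the spread between these libraries, which may be technical.

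Ribosome production starts in the nucleolus, where RNA polymerase I copies the ribosomal DNA repeats into a long precursor RNA. Small nucleolar RNAs, carried in ribonucleoprotein particles (snoRNPs), guide the methylation and pseudouridylation of this precursor, and a large set of helicases, scaffolds and nucleases folds and cuts it into the RNAs of the small and the large subunit. PHF6, the protein of the mutated gene, is found in the nucleus and nucleolus, carries PHD-type zinc fingers and has been found bound to UBTF, the factor that marks ribosomal DNA for transcription. The comparison therefore asks whether transcripts of the nucleolar machinery differ in level between the cortex of R342X mutants and wild type.

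Libraries held between 30469745 and 74266937 estimated reads, with every mutant sequenced less deeply than any wild type. Phf6, which carries the mutation, was at 42.6, 39.3, 43.1 and 43.6 CPM (counts scaled to library size) in mutants 1 to 4 and at 91.9, 77.8, 74.3 and 72.1 CPM in wild types 1 to 4, a log2 fold change of -0.90 ± 0.08 (SE; adjusted p = 0.00226 by edgeR's quasi-likelihood test; exact two-sided permutation test p = 0.0286, the lowest possible with 4 libraries per genotype). The first principal component over all genes (35.3% of the variance) split the libraries across genotype: mutants 1 to 3 and wild type 1 (set 1) stood apart from mutant 4 and wild types 2 to 4 (set 2). No label names a batch, so these sets are a property of the data. Because 3 of 4 mutants lie in set 1 and 3 of 4 wild types in set 2, a second fit also holds the library set. For nucleolar genes given library by library, its fold changes are shown beside those of the first. The sets were drawn from the same values that are tested, so p-values of the second fit may be too small. All 7 cortex identity genes were detected and 4 hindbrain and cerebellar genes summed to at most 0.337 TPM (a scale corrected for library size and transcript length) in any library.

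The nucleolar genes spanned a wide range of levels in wild-type cortex, with little spread between libraries. Their mean wild-type level ran from 11.1 TPM for Taf1c to 548 TPM for Npm1, with a median of 40.5 TPM, and 8 genes reached at least 100 TPM. The 8 were Npm1 (548 ± 14.4 TPM; SD, n = 4), Rrp1 (280 ± 8.23), Ncl (266 ± 6.57), Nop56 (226 ± 19.1), Nop58 (137 ± 3.98), Fbl (135 ± 3.24), Ubtf (121 ± 3.96) and Gnl3 (106 ± 14.3). Nop58 and Fbl, core proteins of the same snoRNP, differed by less than their SDs, whereas Npm1 lay above the next gene in every library. In 44 of the 50 genes the coefficient of variation over the wild-type libraries was under 10%, with a median of 6.15%. The subunits and cofactors of RNA polymerase I lay mostly at the low end: Polr1a was at 13.9 ± 2.18 TPM, Polr1b at 23.8 ± 0.96, and the promoter-binding subunits Taf1a, Taf1b and Taf1c at 17.5, 27.4 and 11.1 TPM. Taf1d (64.7 TPM), Polr1c (56.4 TPM), Rrn3 (49.9 TPM) and Ubtf lay above the median of the 50. Only 6.28% of the reads of Taf1b were in protein-coding transcripts, as a mean over the 8 libraries. No gene was near the limit of detection, since each held between 345 and 40651 estimated reads in every library and all 50 passed the filter on low counts. The plot of wild-type levels orders all 50 genes by TPM.

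**Figure D1:**
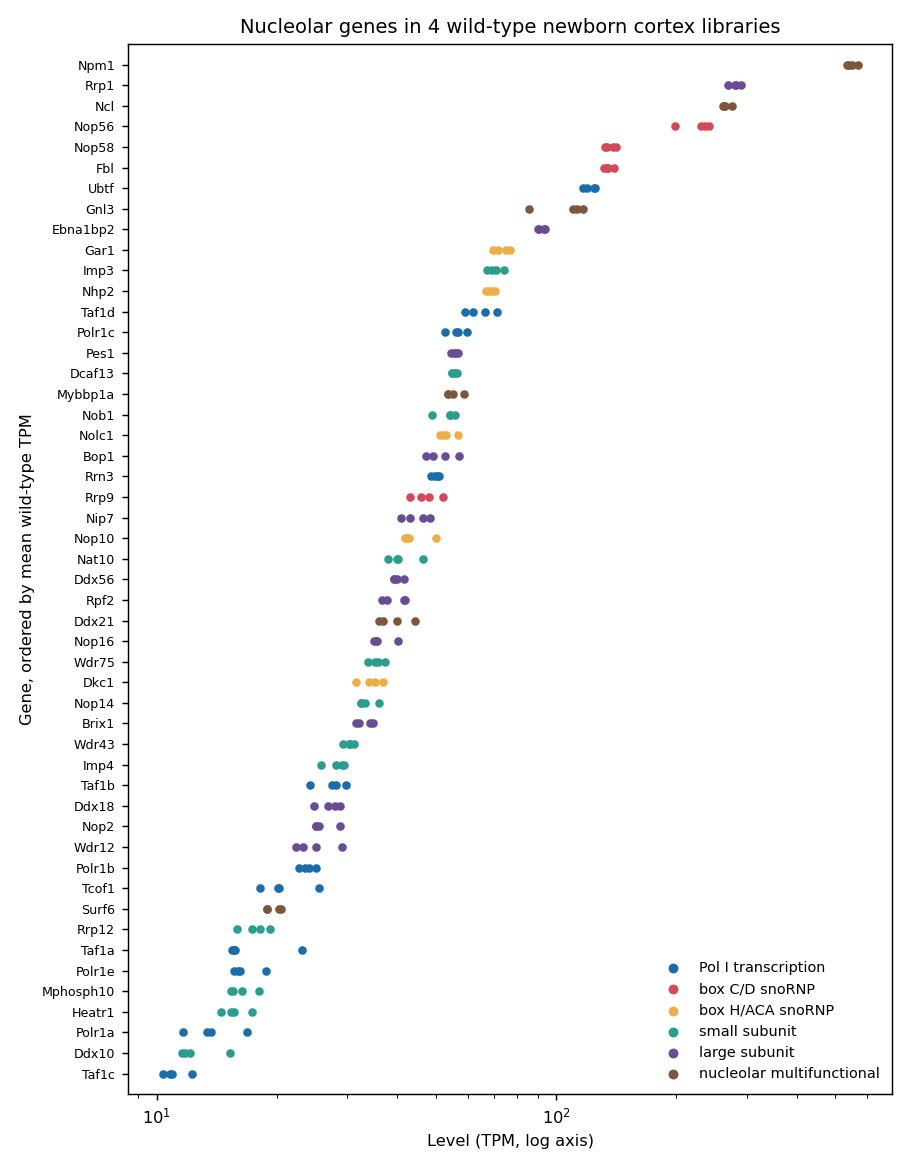
Level of each nucleolar gene (TPM, log axis) in the 4 wild-type libraries, 1 point per library, ordered by mean and coloured by role. Npm1 lies highest at a mean of 548 TPM and Taf1c lowest at 11.1 TPM.

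No nucleolar gene passed the test between genotypes. With genotype as the only term, 0 of 50 genes had a Benjamini-Hochberg adjusted p under 0.05 in edgeR's quasi-likelihood test, where 4 of 20097 genes tested did (0.0199%). At an unadjusted p under 0.05, 9 of the 50 passed, 1 higher and 8 lower in mutants, against 13.7% of all genes tested, 6.84% being lower. Log2 fold changes ran from -0.30 (Gnl3) to 0.21 (Taf1a) and were below 0 in 30 genes (60.0%), with a median of -0.03, where 49.7% of all genes tested lay below 0 and their median was 0.00. With the library set as a term, 0 of 50 were called against 0.602% of all genes, 35 lay below 0 where 51.5% of all genes did, the median was -0.02, and 3 had an unadjusted p under 0.05 where 13.7% of all genes did. Standard errors ran from 0.04 to 0.13 with a median of 0.06 on the log2 scale. The plot of fold changes sets both fits side by side.

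**Figure D2:**
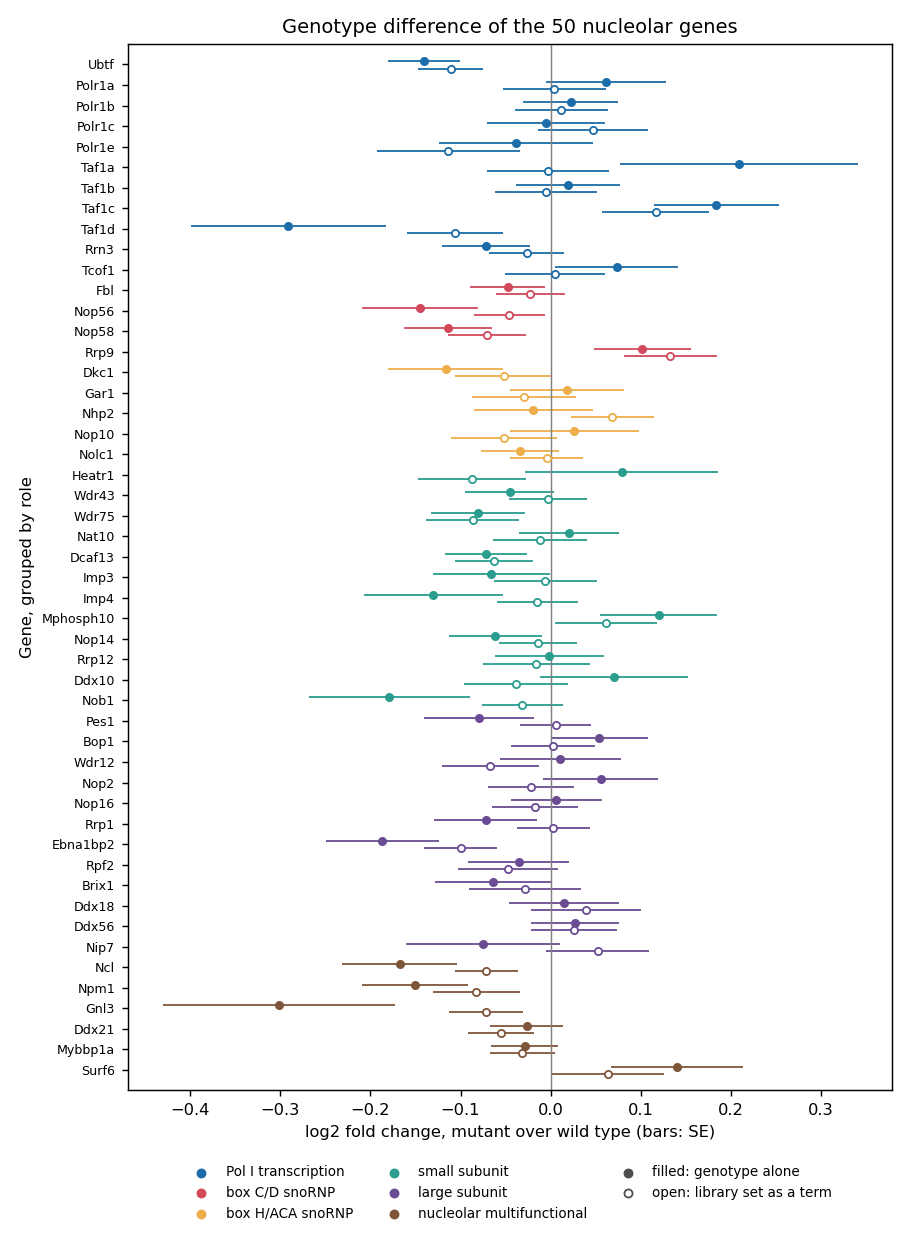
Log2 fold change (mutant over wild type) of the 50 nucleolar genes with its standard error, grouped and coloured by role; filled points are from the fit on genotype alone and open points from the fit that also holds the library set. Gnl3 and Taf1d, the lowest filled points at -0.30 and -0.29, move to -0.07 and -0.11 with the library set.

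In single libraries the genotypes seldom separated. On the CPM scale Ubtf and Dcaf13 (2 of 50, 4.0%) were lower in every mutant library than in every wild-type library, against 3.2% of all genes. Rrp9 (1 of 50, 2.0%) was higher in every mutant library, against 2.95%. These shares are near the background, and in TPM the genotypes overlapped in each of these genes. The split by library set was met more often on one side: 17 of 50 genes (34%) were higher in all of set 2 than in any of set 1, against 15.1% of all genes, and 7 (14%) were lower, against 18.2%. Mutant minus wild type could also be read within each set, with 1 library of one genotype against 3 of the other. Within set 1 the median difference was 0.00 on the log2 scale and 24 genes lay below 0, and within set 2 it was -0.04 and 40 lay below 0. Over all genes tested the medians were -0.0026 in set 1 and -0.0086 in set 2. Every set 1 difference rests on wild type 1 and every set 2 difference on mutant 4. Of the 50 genes, 19 lay below 0 in both sets and 5 above 0 in both. These counts within sets have no share over all genes beside them and are given as a description only.

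Among the RNA polymerase I genes, Ubtf, the upstream binding factor that opens ribosomal DNA for transcription, had the smallest p of all 50. Its level was 190, 184, 186 and 193 CPM in mutants 1 to 4 and 200, 207, 215 and 209 CPM in wild types 1 to 4. In CPM the groups did not overlap, and mutants held 90.7% of the wild-type mean. In TPM they overlapped, at 119.3, 112.8, 112.1 and 112.5 in mutants and 124.5, 119.7, 124.7 and 116.6 in wild types. The log2 fold change was -0.14 ± 0.04 (SE; edgeR adjusted p = 0.237) and -0.11 ± 0.04 with the library set (adjusted p = 0.185). It was -0.10 within set 1 and -0.12 within set 2, so the difference had the same sign and nearly the same size in both. The Wald test of DESeq2 called Ubtf alone among the 50 (-0.14, adjusted p = 0.0366), at a setting where 2.0% of all genes were called. In the authors' deposited table, whose model is not stated, Ubtf was not called (-0.09, adjusted p = 0.155). Whether the fold changes there were shrunk towards 0 is not stated either, so their sizes may not compare directly with those given here.

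The core of RNA polymerase I itself showed no such separation. Polr1a, the largest subunit, was at 50.9, 51.1, 47.6 and 49.7 CPM in mutants and 53.6, 46.9, 47.5 and 43.1 CPM in wild types (log2 fold change 0.06 ± 0.07, adjusted p = 0.676; 0.00 with the library set). Polr1b, the second largest subunit, was at 34.2, 32.1, 30.5 and 31.2 CPM in mutants and 31.4, 32.2, 31.4 and 31.0 CPM in wild types (0.02 ± 0.05, adjusted p = 0.858; 0.01 with the set). Rrn3, which brings the polymerase to its promoter, was at 95.3, 88.5, 88.9 and 95.4 CPM in mutants and 91.4, 100.8, 96.5 and 98.2 CPM in wild types (-0.07 ± 0.05, adjusted p = 0.508; -0.03 with the set). Genotypes overlapped in all 3 genes.

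Taf1d, a subunit of the factor that sits on the ribosomal DNA promoter, followed the library sets. It was at 46.6, 46.5, 48.0 and 56.8 CPM in mutants and 47.8, 64.5, 61.3 and 68.5 CPM in wild types. The 4 libraries of set 1 lay between 46.5 and 48.0 CPM and those of set 2 between 56.8 and 68.5 CPM, mutant 4 among the latter and wild type 1 among the former. The log2 fold change was -0.29 ± 0.11 on genotype alone (edgeR adjusted p = 0.305) and -0.11 ± 0.05 with the library set (adjusted p = 0.412). Its partners, named here after their values were seen, were not called either: Taf1c had a fold change of 0.18 ± 0.07 (0.12 with the set), Taf1a of 0.21 ± 0.13 (0.00 with the set) and Taf1b of 0.02 ± 0.06 (-0.01 with the set). Over the 11 RNA polymerase I genes, 5 lay below 0 and 6 above, with a median of 0.02.

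The box C/D snoRNP, which methylates ribosomal RNA, has fibrillarin (Fbl) as its enzyme and Nop56 and Nop58 as its scaffold. Fbl was at 68.5, 70.7, 71.3 and 72.2 CPM in mutants and 70.9, 72.7, 73.6 and 75.0 CPM in wild types (log2 fold change -0.05 ± 0.04, edgeR adjusted p = 0.606; -0.02 with the library set). Nop56 was at 142, 137, 141 and 155 CPM in mutants and 140, 165, 162 and 169 CPM in wild types (-0.14 ± 0.06, adjusted p = 0.361; -0.05 with the set). Nop58 was at 107, 103, 99.3 and 109 CPM in mutants and 108, 118, 110 and 117 CPM in wild types (-0.11 ± 0.05, adjusted p = 0.352; -0.07 with the set). All 3 were higher in every library of set 2 than in any of set 1, and the genotypes overlapped in each. Rrp9, which binds the U3 snoRNP, was higher in every mutant library (31.0 to 32.2 CPM) than in any wild-type library (27.2 to 30.9 CPM), with a fold change of 0.10 ± 0.05 (adjusted p = 0.417; 0.13 with the set). In TPM the genotypes overlapped for Rrp9, at 46.9 to 61.2 in mutants and 43.0 to 52.0 in wild types. The CPM of its coding transcripts overlapped too.

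The box H/ACA snoRNP converts uridines to pseudouridines through dyskerin (Dkc1), with Gar1, Nhp2 and Nop10 as its other core proteins and Nolc1 as a nucleolar chaperone. Dkc1 was at 33.5, 31.4, 32.2 and 35.6 CPM in mutants and 33.8, 36.8, 34.3 and 38.9 CPM in wild types (log2 fold change -0.12 ± 0.06, edgeR adjusted p = 0.431; -0.05 with the library set). Nolc1 was at 86.5, 86.9, 85.5 and 87.5 CPM in mutants and 84.4, 86.7, 92.1 and 91.4 CPM in wild types (-0.03 ± 0.04, adjusted p = 0.726; 0.00 with the set). Genotypes overlapped in both. The other 3 proteins had fold changes from -0.02 (Nhp2) to 0.03 (Nop10), and from -0.05 (Nop10) to 0.07 (Nhp2) with the set.

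Assembly of the small subunit, which begins in a particle called the processome, took up 12 of the genes, 8 below 0, with a median log2 fold change of -0.05 on genotype alone and -0.02 with the library set. Heatr1, a scaffold of that particle, was at 34.8, 32.6, 29.4 and 25.8 CPM in mutants and 34.4, 27.9, 27.4 and 26.5 CPM in wild types. It was higher in every library of set 1, and its log2 fold change turned from 0.08 ± 0.11 on genotype alone to -0.09 ± 0.06 with the library set (edgeR adjusted p = 0.743 and 0.570). Mphosph10, which sits in the processome with Imp3 and Imp4, was at 20.6, 19.3, 19.8 and 17.5 CPM in mutants and 18.2, 17.5, 17.6 and 17.7 CPM in wild types (0.12 ± 0.06, adjusted p = 0.423; 0.06 with the set), again higher in every library of set 1. Nob1, the nuclease that makes the last cut of the small-subunit RNA, was at 40.8, 39.6, 39.9 and 47.0 CPM in mutants and 39.4, 48.8, 49.6 and 51.5 CPM in wild types, with the sets apart in the other direction. Its fold change was -0.18 ± 0.09 (adjusted p = 0.398) and -0.03 ± 0.05 with the library set. Dcaf13 did not overlap between genotypes (47.4 to 48.0 CPM in mutants, 48.1 to 52.2 CPM in wild types), by a log2 difference of -0.07 ± 0.05 (adjusted p = 0.482; -0.06 with the set). In TPM it overlapped, at 50.9 to 55.3 in mutants and 54.8 to 56.6 in wild types.

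Nat10, which acetylates small-subunit RNA, and Wdr75 were 2 of the 50 genes called in the authors' deposited table, and they differed between ways of counting. In that table the log2 fold change was -0.21 (adjusted p = 0.0217) for Nat10 and -0.17 (adjusted p = 0.0444) for Wdr75, among 2.78% of its 14991 genes with an adjusted p that passed. Estimated reads gave Nat10 at 55.7, 53.7, 48.6 and 51.8 CPM in mutants and 54.6, 51.7, 50.9 and 49.6 CPM in wild types, with overlap throughout and a fold change of 0.02 ± 0.06 (edgeR adjusted p = 0.879). When the same fit took the average transcript length of each gene and library as an offset, the fold change of Nat10 was -0.17 ± 0.08 (adjusted p = 0.401) and that of Wdr75 went from -0.08 ± 0.05 (adjusted p = 0.495) to -0.20 ± 0.06 (adjusted p = 0.255). On the TPM scale Nat10 was at 40.9, 43.5, 34.1 and 32.8 in mutants and 46.4, 39.9, 40.1 and 38.0 in wild types, which overlapped. The sign for Nat10 thus differed between settings, and on reads alone it was also below 0 with the library set (-0.01) and without mutant replicate 1 (-0.0074). With the library set Wdr75 was at -0.09, and neither gene was called without or with the offset.

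Brix1, an assembly factor of the large subunit, showed the widest gap between the scales and was chosen here for that reason. Its reads overlapped between genotypes (26.8 to 31.2 CPM in mutants, 28.0 to 31.8 CPM in wild types; log2 fold change -0.06 ± 0.06, edgeR adjusted p = 0.650; -0.03 with the library set). Its TPM values did not, with 23.5, 28.4, 19.5 and 30.03 in mutants and 32.2, 31.6, 34.1 and 34.8 in wild types, and the fit with length offsets gave -0.45 ± 0.12 (adjusted p = 0.250). The full-length coding transcript (2664 bases) was level, with means of 20.9 ± 1.84 TPM over the mutants and 20.1 ± 0.45 TPM over the wild types (SD, n = 4). The gap lay in a short transcript of 441 bases without an annotated reading frame, listed at 0 TPM in mutants 1 and 3, at 7.32 and 10.4 TPM in mutants 2 and 4, and between 11.1 and 15.01 TPM in all wild types.

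Of the 12 large-subunit genes, 6 lay below 0 and 6 above, with a median log2 fold change of -0.01 in both fits. Ebna1bp2, an early scaffold of the large subunit, had the smallest p among them and was at 72.2, 67.1, 70.7 and 79.8 CPM in mutants and 75.8, 85.1, 83.1 and 85.9 CPM in wild types. Mutant 4 exceeded wild type 1, so the genotypes overlapped, while all of set 2 lay above set 1. The log2 fold change was -0.19 ± 0.06 (edgeR adjusted p = 0.273) and -0.10 ± 0.04 with the library set (adjusted p = 0.297), and it was below 0 within both sets (-0.11 and -0.09). Pes1 and Bop1 form, with Wdr12, the complex that matures the large-subunit RNAs. Pes1 was at 67.8, 64.4, 66.5 and 72.6 CPM in mutants and 64.4, 75.0, 73.7 and 73.3 CPM in wild types (-0.08 ± 0.06, adjusted p = 0.550; 0.01 with the set). Bop1 was at 65.9, 65.6, 65.2 and 60.0 CPM in mutants and 64.3, 59.9, 64.9 and 58.2 CPM in wild types (0.05 ± 0.05, adjusted p = 0.649; 0.00 with the set). These 2 partners differed in opposite directions between the library sets, Pes1 with all of set 2 above set 1 and Bop1, whose sets overlapped in wild type 3, with a mean of 65.3 ± 0.69 CPM in set 1 and 60.8 ± 2.87 CPM in set 2 (SD, n = 4 each).

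The nucleolar proteins with several roles were nearly all below 0 (5 of 6 in both fits, median log2 fold change -0.09, and -0.06 with the library set). Nucleolin (Ncl), which packages and processes the precursor, was at 470, 461, 471 and 547 CPM in mutants and 502, 572, 553 and 562 CPM in wild types. Nucleophosmin (Npm1), a chaperone of the outer nucleolus, was at 326, 306, 327 and 338 CPM in mutants and 327, 365, 354 and 393 CPM in wild types. Nucleostemin (Gnl3), a GTPase abundant in dividing progenitors, was at 46.2, 46.0, 47.0 and 62.6 CPM in mutants and 48.0, 67.1, 64.7 and 68.6 CPM in wild types. In all 3 the library sets did not overlap: mutant 4 lay above wild type 1 and below wild types 2 to 4. The fold changes were -0.17 ± 0.06 for Ncl, -0.15 ± 0.06 for Npm1 and -0.30 ± 0.13 for Gnl3 (edgeR adjusted p = 0.313, 0.319 and 0.348), and -0.07, -0.08 and -0.07 with the set. Without mutant 4, Ncl was called (-0.23, adjusted p = 0.0463), the only call among the 50 at a setting that called 3.37% of all genes. Without mutant 4 and wild type 1 together, 22 of the 50 were called, 7 higher and 15 lower, against 33.7% of all genes, but genotype and library set are then the same split and cannot be told apart. Npm1 has processed copies in the mouse genome, so the assignment of its reads is uncertain.

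**Figure D3:**
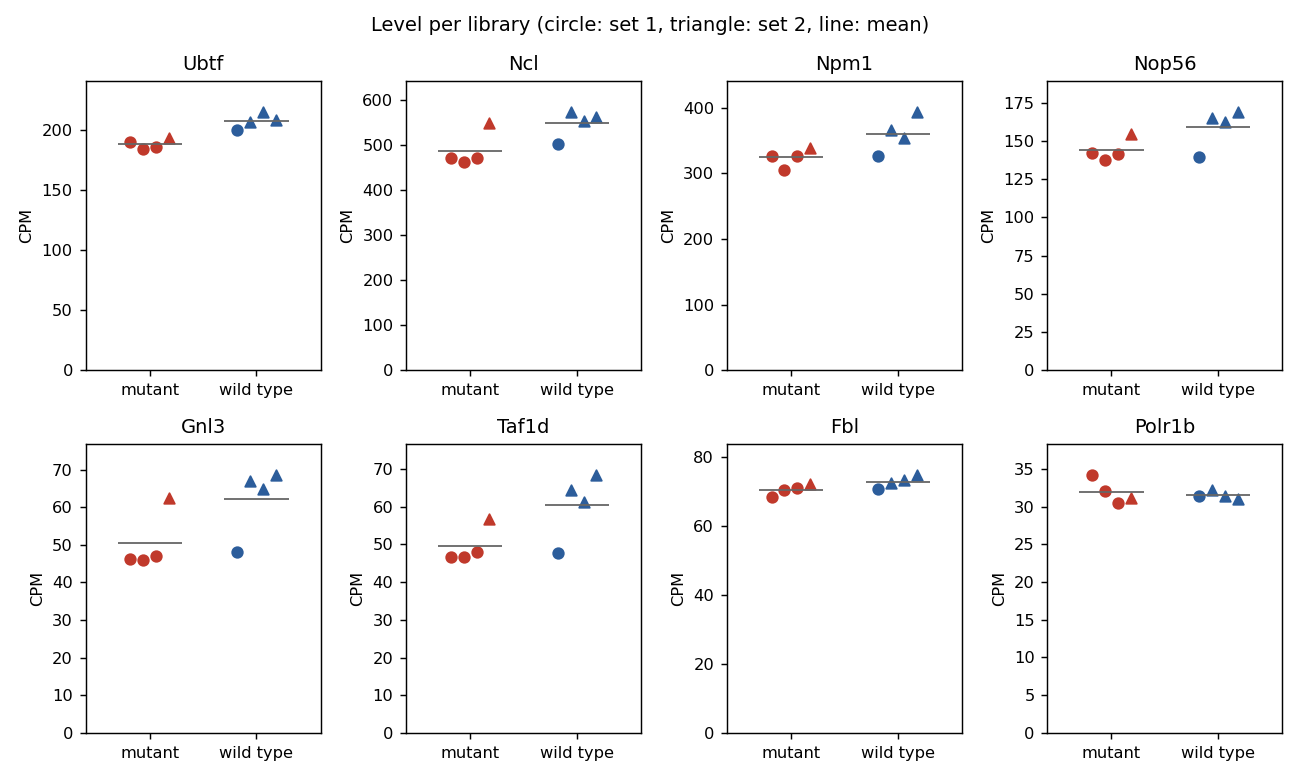
Level (CPM) of 8 nucleolar genes in each library, mutants in red and wild types in blue, circles for library set 1 and triangles for set 2, with the mean of each genotype as a line. Ubtf separates by genotype on this scale, Gnl3 and Taf1d separate widely by library set, and Polr1b shows little of either. Fbl separates narrowly by library set, with means of 70.3 CPM in set 1 and 73.4 CPM in set 2.

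The plot of 8 genes by library shows these patterns side by side. In Gnl3, Taf1d, Nop56 and Ncl the mutant triangle lies above every circle and below every wild-type triangle, and in Polr1b all 8 libraries lie between 30.5 and 34.2 CPM. Fewer cells of a type and less RNA per cell cannot be told apart in these bulk samples. Markers of dividing progenitors, cells in which nucleolar genes are known to be high, were all 10 below 0 (median log2 fold change -0.24, and -0.10 with the library set; 0 called), and summed to 264 to 329 TPM in mutants and 320 to 334 TPM in wild types. The 50 nucleolar genes summed to 3268 to 3412 TPM in mutants and 3415 to 3477 TPM in wild types. Astrocyte markers summed to 912 to 1070 TPM in mutants and 708 to 861 TPM in wild types, and cortex identity genes to 938 to 1030 and 1060 to 1140 TPM. The part of these cell markers in the values of the nucleolar genes was not tested.

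The library sets also differed in the reads assigned to transcripts that keep an intron. The annotation gives 34 of the 50 genes such a retained-intron transcript with reads, and its mean share of the gene's reads was at least 5% in 18 genes and at least 30% in 6. The 6 were Ncl (59.8%), Gnl3 (55.1%), Taf1d (49.4%), Nob1 (49.2%), Wdr75 (44.2%) and Nop56 (43.2%). These shares are estimated assignments of reads to annotated transcripts, which share exons, and not counts of reads inside introns. For Ncl the most-read retained-intron transcript has 3072 bases and the most-read coding one 8202 bases. The part of such annotation in its share was not tested. Summed over the 50 genes, the share was 14.2% to 15.4% in the libraries of set 1 and 17.2% to 17.6% in set 2, and over all genes it was 3.67% to 3.87% and 4.05% to 4.22%. Ncl held the most of these reads, at means of 283 CPM in set 1 and 336 CPM in set 2, followed by Nop56 at 51.4 and 80.8 CPM. The summed share therefore depends on the level of Ncl as well, and its part was not tested. The share was higher in all of set 2 than in any of set 1 in 12 of 34 genes, against 16.9% of 8138 genes with such reads. It was lower in 1 (Dcaf13), a side without a share over all genes beside it. Genotypes did not overlap in 2 of 34, Rrn3 and Fbl, both lower in mutants, against 3.18%. In Rrn3 such reads were few, at 0.45 ± 0.09 CPM in mutants and 0.82 ± 0.19 CPM in wild types (SD, n = 4). In Fbl they were at 4.76 ± 0.57 and 5.83 ± 0.37 CPM.

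The exon and intron junctions concerned are shown for the genes with the widest difference between sets and for Ncl, which had the highest share and little difference. Each line gives the last 30 exonic bases in lower case and the first 30 bases of the kept intron in capitals, from the GRCm38 sequence of the retained-intron transcript.
Gnl3, intron 9 of 14, chr14:31014560-31014619, minus strand: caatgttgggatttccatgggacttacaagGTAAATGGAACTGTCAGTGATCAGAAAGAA
Nop56, intron 10 of 11, chr2:130277941-130278000, plus strand: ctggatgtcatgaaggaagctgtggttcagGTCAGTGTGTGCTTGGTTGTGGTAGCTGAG
Nob1, intron 7 of 8, chr8:107416964-107417023, minus strand: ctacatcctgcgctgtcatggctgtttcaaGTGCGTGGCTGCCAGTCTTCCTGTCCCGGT
Rrp9, intron 7 of 14, chr9:106483007-106483066, plus strand: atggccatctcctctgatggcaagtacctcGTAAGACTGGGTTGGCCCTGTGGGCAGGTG
Ncl, intron 9 of 13, chr1:86353096-86353155, minus strand: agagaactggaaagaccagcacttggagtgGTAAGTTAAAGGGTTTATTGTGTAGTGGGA
All 5 introns open with GT and close with AG, the usual splice signals, and lie between coding exons. The Gnl3 intron (362 bases) holds the snoRNA gene Snord69 and the Nop56 intron (185 bases) holds Snord57, while those of Nob1 (743 bases), Rrp9 (82 bases) and Ncl (492 bases) hold none. The transcripts that keep these introns had means in sets 1 and 2 of 10.9 ± 0.92 and 19.1 ± 0.75 TPM for Gnl3, 5.41 ± 0.81 and 11.8 ± 0.94 TPM for Nop56, 11.9 ± 0.97 and 18.9 ± 1.32 TPM for Nob1, 3.46 ± 1.20 and 6.36 ± 1.48 TPM for Rrp9 and 180 ± 10.47 and 199 ± 7.51 TPM for Ncl (SD, n = 4). The Nop56 transcript keeps 7 introns and those of Gnl3 and Ncl keep 2 each, so their values do not belong to the printed intron alone. Those of Nob1 and Rrp9 keep 1. Other retained-intron transcripts contributed too. The most-read one of Nop56 keeps 5 introns but not intron 10, and had means of 12.4 ± 1.39 and 12.9 ± 1.93 TPM.

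Nob1 had the widest difference in share between sets, 41.6% in set 1 and 56.7% in set 2. Its retained-intron share was 41.5%, 45.3%, 39.2% and 55.4% in mutants 1 to 4 and 40.4%, 55.0%, 56.2% and 60.3% in wild types 1 to 4. Nop56 stood at 34.7%, 37.4%, 36.9% and 49.6% in mutants and 37.8%, 49.9%, 48.9% and 50.3% in wild types. Gnl3 stood at 46.5%, 53.2%, 49.6% and 60.5% in mutants and 49.9%, 60.5%, 60.5% and 60.4% in wild types. In each of them mutant 4 lay with wild types 2 to 4, and wild type 1 lay with mutants 1 to 3. Rrp9 ran from 11.2% to 18.6% in set 1 and from 26.7% to 32.7% in set 2, the highest being mutant 4. Ncl ran only from 57.7% to 61.3% over all 8 libraries, so its level and its share behaved differently. The plot of retained-intron shares gives 8 genes by library.

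**Figure D4:**
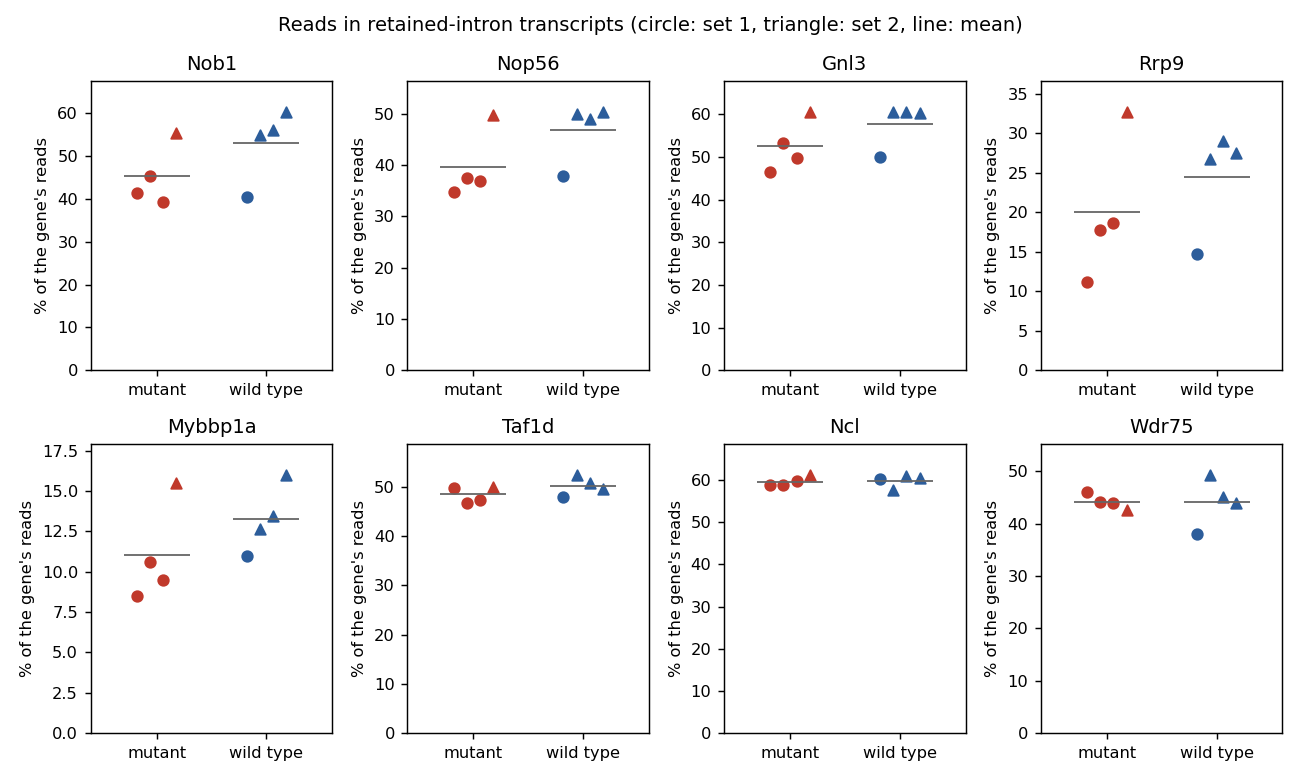
Percent of each gene's reads in retained-intron transcripts, per library, mutants in red and wild types in blue, circles for library set 1 and triangles for set 2, with the genotype mean as a line. In Nob1, Nop56, Gnl3, Rrp9 and Mybbp1a every triangle lies above every circle, and in Taf1d, Ncl and Wdr75 they overlap.

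In these genes the means of coding and of retained-intron reads differed in opposite directions between the sets. Gnl3 held 19.4 ± 1.81 CPM in coding transcripts in set 1 and 17.3 ± 1.73 CPM in set 2 (SD, n = 4 each), and 23.3 ± 1.32 and 39.8 ± 1.58 CPM in retained-intron transcripts. For Nop56 the coding level was 83.8 ± 2.54 and 75.8 ± 2.98 CPM and the retained-intron level 51.4 ± 1.6 and 80.8 ± 3.54 CPM. For Nob1 they were 22.5 ± 1.63 and 20.4 ± 0.72 CPM, and 16.6 ± 1.05 and 28.0 ± 2.23 CPM. Set 2 thus held 171% of the set 1 level in retained-intron reads of Gnl3, 157% for Nop56, 168% for Nob1 and 184% for Rrp9, beside 89.4%, 90.4%, 90.7% and 85.7% in coding reads. When protein-coding transcripts alone were summed, the genotype fold change was -0.03 for Gnl3, 0.03 for Nop56 and 0.04 for Nob1, while that of Ubtf, whose reads were 99.4% coding, was -0.15 and that of Ncl -0.18. None was called in that fit. The coding reads of Gnl3 and Nob1 overlapped between the sets, and those of Nop56 and Rrp9 did not.

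**Figure D5:**
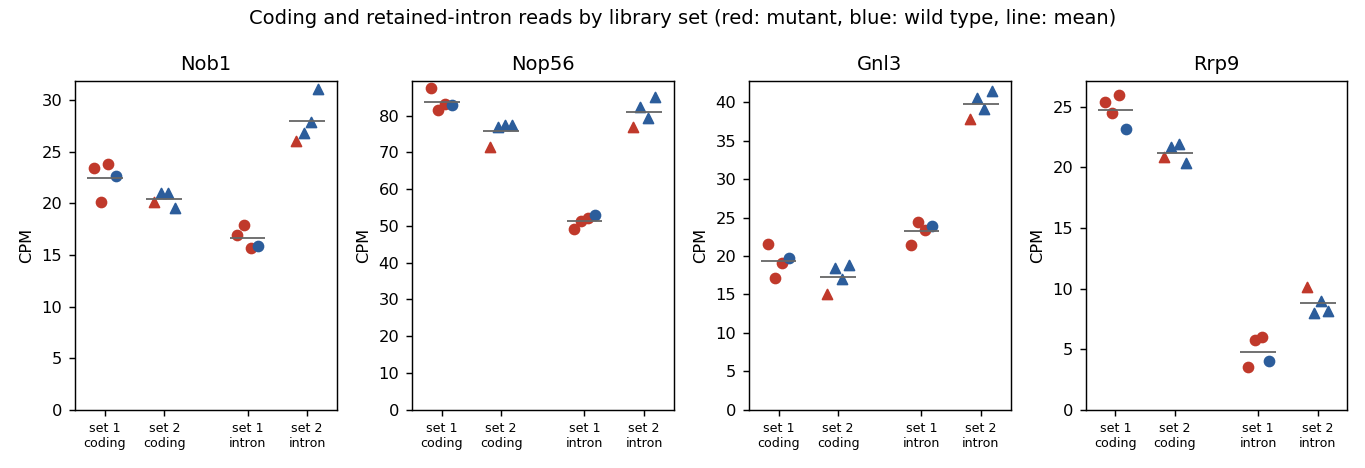
CPM in protein-coding and in retained-intron transcripts of Nob1, Nop56, Gnl3 and Rrp9, by library set, with mutants in red, wild types in blue and the set mean as a line. Retained-intron reads of Gnl3 lie at a mean of 23.3 CPM in set 1 and 39.8 CPM in set 2, and coding reads at 19.4 and 17.3 CPM.

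In the plot of coding and retained-intron reads, the retained-intron points of every set 2 library lie above those of every set 1 library in all 4 genes, which were chosen for their wide difference between sets. Several of the genes also carry snoRNA genes in their introns. In the annotation 27 snoRNA genes lie inside 7 of the 50 genes, with 8 in Taf1d, 5 in Nop56, 4 in Nop58, 3 each in Wdr43, Ncl and Gnl3, and 1 in Dkc1. Of these 7 hosts, 6 were higher in all of set 2 than in any of set 1, against 27.1% of the 295 tested genes that hold a snoRNA gene. The median difference between sets was 0.22 on the log2 scale in the 7 hosts and -0.01 in the other 43 genes. Another protein-coding gene overlaps 13 of the 50, among them Pbrm1 at Gnl3 and Idh3b at Nop56, and without a stated use of strand the reads of such neighbours cannot always be told apart.

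Noncoding snoRNA hosts, transcripts known chiefly for the snoRNAs in their introns, also stood apart by library set in their summed level. The 8 tested had a median log2 fold change of -0.26 on genotype alone and -0.10 with the library set, and 0 were called. Snhg5 had the smallest p (-0.28 ± 0.08, edgeR adjusted p = 0.244), followed by Gas5 (-0.27 ± 0.11) and Snhg1 (-0.39 ± 0.16). On genotype alone 5 lay below 0 and 3 above, namely Snhg12 (0.11), Snhg8 (0.07) and Snhg3 (0.05). The summed level of the 8 hosts was 1020 to 1140 TPM in set 1 and 1170 to 1420 TPM in set 2. Gas5 alone was at 494 to 698 TPM, so the sum rests largely on this 1 gene.

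A wider list of 113 other ribosome biogenesis genes was read from the same fits. Of 109 found, 108 were tested, 0 were called, 69 lay below 0 and the median log2 fold change was -0.04 (-0.03 with the library set, 75 below 0). The smallest p values belonged to Twistnb, an RNA polymerase I subunit (-0.37 ± 0.10, edgeR adjusted p = 0.236; -0.20 with the set), to Gnl3l, a relative of nucleostemin (-0.15 ± 0.05; -0.19 with the set, adjusted p = 0.0547), and to Rpf1, a large-subunit factor (-0.22 ± 0.07). At an unadjusted p under 0.05, 8 of the 108 passed, all lower in mutants, where 13.7% of all genes passed in either direction and 6.84% lower. Of the 11 genes of the Myc network, whose transcription factors drive nucleolar genes, Mycn had the smallest p (-0.24 ± 0.05, adjusted p = 0.159; -0.22 with the set, adjusted p = 0.0509). In the nucleolar stress and p53 list, Cdkn1a, the p53 target that halts the cell cycle, was at 23.0 ± 1.27 CPM in mutants and 16.3 ± 0.72 CPM in wild types (SD, n = 4). Cdkn1a missed the threshold on genotype alone (0.49 ± 0.06, edgeR adjusted p = 0.0529). It was called higher in mutants with the library set as a term (0.48 ± 0.06, edgeR adjusted p = 0.011), where 0.602% of all genes were called. That set was drawn from these same data, so this p-value may be too small. Rpl5 (-0.29 ± 0.12) and Mdm2 (-0.30 ± 0.13) were not called in either fit.

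Short motifs were searched in the promoters of the nucleolar genes, without use of any level. RefSeq promoters of GRCm38, from 250 bases before the start site to 50 bases after it, matched 44 of the 50 genes with 54 promoters, and were searched on both strands against 32851 promoters of all genes. The ETS core CCGGAAGT was in 27.8% of the 54 (15 promoters) and in 3.89% of all promoters, and the E-box CACGTG, which MYC family proteins bind, in 14.8% and 7.15%. The CCAAT box was in 35.2% and 37.4%, the TATA sequence TATAAA in 3.7% and 13.6%, and the core motif of NRF1 in 0% and 0.971%. Median GC content was 56.8% in the 54 and 52.7% in all promoters. The ETS core occurred in 13 genes, and it began within 50 bases before the start site in 9 of them, of which 6 are shown as examples. Each line runs from 90 bases before the start site to the first 10 bases of the transcript, with the ETS core (CCGGAAGT, or ACTTCCGG on the other strand) and any E-box in capitals.
Rrn3, chr16:13780609-13780708, plus strand: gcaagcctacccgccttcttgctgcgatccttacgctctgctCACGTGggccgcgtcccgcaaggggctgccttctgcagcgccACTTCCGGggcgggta
Ebna1bp2, chr4:118620709-118620808, plus strand: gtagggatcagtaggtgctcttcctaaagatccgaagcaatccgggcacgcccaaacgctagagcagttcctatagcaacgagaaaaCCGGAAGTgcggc
Heatr1, chr13:12395285-12395384, plus strand: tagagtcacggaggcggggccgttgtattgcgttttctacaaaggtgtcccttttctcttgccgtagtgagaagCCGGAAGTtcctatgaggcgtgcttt
Nhp2, chr11:51619683-51619782, plus strand: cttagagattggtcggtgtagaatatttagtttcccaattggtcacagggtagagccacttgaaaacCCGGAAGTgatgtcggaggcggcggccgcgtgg
Polr1c, chr17:46248036-46248135, minus strand: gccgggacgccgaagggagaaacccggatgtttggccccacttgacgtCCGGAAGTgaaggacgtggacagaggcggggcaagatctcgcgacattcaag
Gar1, chr3:129831387-129831486, minus strand: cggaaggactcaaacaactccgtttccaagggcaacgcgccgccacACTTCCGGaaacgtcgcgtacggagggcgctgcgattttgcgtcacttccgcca
The core starts 3 bases before the start site in Ebna1bp2, 6 in Rrn3, 16 in Heatr1, 23 in Nhp2, 42 in Polr1c and 44 in Gar1, and Rrn3 also holds an E-box 48 bases before it. A match of letters describes the sequence and does not show binding. The 9 genes did not share a direction between genotypes: their log2 fold changes were -0.19 for Ebna1bp2, -0.07 for Rrn3, -0.04 for Rpf2, -0.02 for Nhp2, -0.01 for Polr1c, 0.02 for Gar1, 0.08 for Heatr1, 0.14 for Surf6 and 0.18 for Taf1c.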

How the data were processed

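Per the labels, mRNA libraries of newborn mouse cortex were made for 4 R342X mutants and 4 wild types. The submitters' processing notes name Salmon 0.12.0, DESeq2 and the build GRCm38. No source used here states the strand or bias settings. Each deposited library file lists an expected count (estimated reads) and a TPM value per transcript, per the file headers. The authors' deposited comparison holds a mean signal level, a log2 fold change and a p-value per gene. Its model, and any shrinkage of its fold changes towards 0, are not stated.

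Estimated counts were summed per gene, rounded and fitted over all 20097 genes left by edgeR's default filter (quasi-likelihood F test of edgeR 4.0.16 under R 4.3.3, with TMM scaling, two-sided and called at a Benjamini-Hochberg adjusted p under 0.05). CPM values are TMM-scaled. Library sets follow the sign of the leading principal component of log2 CPM values (prior count 2). Alternatives were DESeq2 1.42.0, limma-voom (limma 3.58.1), other filters, length offsets, coding transcripts alone, the library set, the replicate number, and libraries left out. The fit was tested on simulated data. Transcript classes come from the file's own identifiers, positions and snoRNA genes from GENCODE M21, promoters from RefSeq. The 50 genes, the other lists and the library sets were chosen with earlier results of these data known. Genes given in every library were 16 core genes and the 2 of smallest p in each role, 20 in all, and others were named after their values were seen.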

Additional observations from a re-analysis of the deposited data

Results flagged for a closer look

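Among 76 groups of 4 libraries (the CPM of 20 nucleolar genes and the retained-intron shares of 18, in each genotype), 9 held a library farther from the rest than Dixon's critical value at the 95% level allows, which chance alone gives in about 5% of groups. In mutants this was replicate 4 throughout: Ncl at 547.0 CPM, Gnl3 at 62.6 CPM, Nob1 at 47.0 CPM and Taf1d at 56.8 CPM stood above the other 3 mutants, and Bop1 at 60.0 CPM stood below them. In wild types it was replicate 1, with Pes1 at 64.4 CPM and retained-intron shares of 37.8% in Nop56, 14.7% in Rrp9 and 49.9% in Gnl3, all below the other 3. These are the lone libraries of their genotype in their library set, and the 9 values are not independent of one another, since they come from 2 libraries.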

How the results depend on the processing

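The median log2 fold change of the 50 genes stayed below 0, and Phf6 stayed called, under each alternative run. Genes called over the whole table numbered 4 with genotype alone, 121 with the library set, 13 without the filter on low counts, 401 with DESeq2, and 6983 without mutant replicate 4 and wild type replicate 1 together. Leaving out single libraries gave 3 to 699, the most when mutant replicate 4 was left out, and 14 when wild type replicate 1 was. Nucleolar genes called numbered 0, except 1 with DESeq2, 0 to 1 with single libraries left out, and 22 with both left out. With the replicate block, 20 genes and 0 of the 50 were called. The correlations of same-numbered libraries were 0.24, -0.03, -0.08 and 0.32, so the numbers were not taken to pair libraries.

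Of the 50 genes, 15 differed in sign between the fits without and with the library set, none of them called. Among the 20 given in every library, those that changed sign were Heatr1 (-0.0876), Nat10 (-0.0119) and Pes1 (0.0057) with the library set, Polr1a (-0.0313), Nop56 (0.0254) and Nob1 (0.0417) with protein-coding transcripts alone, and Polr1b (-0.036), Heatr1 (-0.043) and Nat10 (-0.173) with length offsets. With single libraries left out, Polr1b ran from -0.0092 to 0.0524 and Nat10 from -0.0074 to 0.0627, both lowest without mutant replicate 1. The cause was not tested. Depth was no limit on detecting the 50 genes, but standard errors of 0.04 to 0.13 leave differences of that size undecided. Larger ones were not called either, such as -0.30 ± 0.13 for Gnl3 and -0.14 ± 0.04 for Ubtf (edgeR adjusted p = 0.348 and 0.237). The lack of calls therefore does not show equal levels.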
